A study of Mus musculus with 15 samples.

Results

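The collagens other than Col2a1 and Col9a1 are described here in side population (SP) and non-SP cells of mouse glioma-model tumorspheres and of untransformed neurospheres. Members were all genes whose array symbol has the form Col, number, a, number, with those 2 genes left out. This gave 40 of the 42 collagen genes on the array, among 18193 genes with a probe set of their own. Each gene was read from the probe set with the highest mean over the 15 arrays, and 27 of the 40 passed a filter on dim probe sets and were tested. They were 8 of 10 fibrillar collagens, 6 of 6 type IV (basement membrane) chains and 13 of 24 chains of other types.

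RNA was measured on Affymetrix arrays in 5 groups of 3 biological replicates. SP cells are those that a flow sorter finds dim after a DNA dye, because transporters pump the dye out. The tumour groups were 3447 SP, 3447 non-SP and 4346 SP cells. Lines 3447 and 4346 were tumorspheres grown from brain tumours of S100beta-verbB mice that were p53-/- or p53+/-, a model in which the S100beta promoter drives the oncogene verbB in glial cells. They were injected into the brain of mice of strain NOD.Cg-Prkdc<scid>Il2rg<tm1Wjl>/SzJ, whose animals lack mature lymphocytes, and were then isolated, cultured again and sorted. The control groups were neurosphere SP and neurosphere non-SP cells of untransformed neurospheres, from mice with the same transgene and p53 alleles. All 5 groups therefore carry S100beta-verbB and a p53 mutation, so the comparisons do not test either. The labels do not say which samples were p53-/- and which p53+/-, nor the age of the mice. The 3 arrays of a tumour group come from 1 line each, and line 4346 has no non-SP arrays. Tumour and host are both mouse, so host cells could not be told from tumour cells by sequence. The submitters describe the neurospheres once as taken from 3 mice and once as injected into mice, so their path before sorting is not certain.

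Collagens are triple helices of 3 chains, secreted outside the cell. Fibrillar types I, III, V and XI build fibres, with type XI and type V chains at the core of fibres of the more abundant types. Type IV chains form the sheet of basement membranes, type VI forms beaded filaments, and types IX, XII and XVI sit on or between fibres. In healthy brain, collagen is found mainly in vessel walls and meninges, with little in the tissue between.

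Array medians ran from 40 to 89.3 signal units, so arrays were quantile-normalized before log2(signal + 16) was taken; signals by array are given below as deposited. The third 4346 SP array stood apart in RNA quality, with a 3' to 5' actin ratio of 5.3, against 2.49 to 3.29 on the other 14 arrays. It held the highest value of all arrays for 15 of the 27 tested collagens, and for 21.5% of all tested genes. For collagens that passed in 4346 SP cells the value without this array is therefore given too.

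Of 7 neural progenitor and astrocyte markers, 4 fell and 0 rose in 3447 SP and in 4346 SP cells relative to neurosphere SP cells, and 3 fell in 3447 non-SP relative to neurosphere non-SP cells. Nes, for the progenitor filament nestin, ran from 336 to 569.9 in the tumour groups and from 1145 to 2079 in the neurosphere groups. The astrocyte genes Aqp4 and Aldh1l1 were at most 84.7 and 101 in the tumour groups, against 37.3 to 1027 and 62.7 to 1172 in the neurosphere groups, and were as low as 0.338 and 1.38 on a tumour array. Gfap, another astrocyte gene, did not follow them. It was at 0.995 to 307 in the tumour groups and 5.21 to 139 in the neurosphere groups, which overlapped. Sox2, a neural progenitor factor, stayed between 5656 and 7326 on all 15 arrays. Of 6 oligodendrocyte-lineage markers, 4 rose and 2 fell in 3447 SP, 4 rose and 1 fell in 4346 SP, and 4 rose and 0 fell in 3447 non-SP cells. Sox10 ran from 2602 to 8730.1 and Mbp from 6704 to 11657 in the tumour groups, against at most 20.7 and 57 in the neurosphere groups. Olig2 lay the other way, at 1084 to 3587 in the tumour groups and 3613 to 5384 in the neurosphere groups. Olig1 was at 1062 to 3446 in the tumour groups and 2963 to 5321 in the neurosphere groups, which overlapped.

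The 12 fibroblast and meningeal markers summed to 372 to 757 signal units in 3447 SP, 228 to 435 in 3447 non-SP and 312 to 759 in 4346 SP cells, against 297 to 425 in neurosphere SP and 279 to 339.5 in neurosphere non-SP cells. Of these 12, 1 to 5 were above the array median on any array. Of the 6 that were tested, 1 rose and 1 fell in 3447 SP, 3 rose and 1 fell in 4346 SP, and 1 rose and 1 fell in 3447 non-SP cells. Over all tested genes 10.7%, 14.0% and 11.2% rose and 8.94%, 10.3% and 8.21% fell. A count of 1 of 6, or 16.7%, is a single gene and near these shares. The 3 of 6 that rose in 4346 SP cells, or 50%, lie above 14.0%. Lum, for the proteoglycan lumican, rose by 1.98 ± 0.48 in 3447 SP (limma, Benjamini-Hochberg adjusted p = 0.00808) and 2.06 ± 0.48 in 4346 SP cells (0.00525). Without the third 4346 SP array the latter was 1.86 (0.0248). Apod and Islr rose in 4346 SP cells by 1.76 ± 0.49 (0.0151) and 1.88 ± 0.57 (0.0248), and Thy1 was lower in all 3 tumour groups. By level, Lum was at most 126, Islr 204 and the decorin gene Dcn 60.3 on any array. On the 4346 SP arrays Islr was at 24.4, 139.5 and 204 and Apod at 133, 154 and 101. Their fold changes without the third of these arrays are not given. The 10 endothelial markers summed to 176 to 408 signal units in the tumour groups, against 431 to 2196 in the neurosphere groups, where Flt1 reached 1990.3. Their defining genes Pecam1 and Cdh5 were at most 48.5 on every array. The 11 pericyte and smooth muscle markers summed to 1249 to 5477 signal units in the tumour groups and 793 to 2442 in the neurosphere groups. Cspg4, which oligodendrocyte progenitors also use, made up most of the tumour sum, at 924 to 4652, against 86.6 to 191 in neurosphere cells. Notch3 of the same list lay the other way, at 68.8 to 515 in the tumour groups and 345 to 2175 in the neurosphere groups. Of the 4 markers of this list that were tested, 1 rose and 1 fell in each of the 3 comparisons. The 6 microglia and blood markers summed to 64.9 to 429 signal units in the tumour groups and 150.5 to 557 in the neurosphere groups. The macrophage gene Cd68 was at 33.4 to 359 in the tumour groups and 40.3 to 447 in the neurosphere groups. It was the 1 member tested and did not pass, at -0.94 in 3447 SP, 0.35 in 4346 SP and -0.46 in 3447 non-SP cells (adjusted p = 0.229, 0.668 and 0.596). Ptprc and Aif1 were at most 47.3. Whether cells of these kinds contributed to the collagen signals was not tested. In sorted bulk cells, fewer cells of a type and less RNA per cell cannot be told apart.

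Tumour cells had higher signals than neurosphere cells for many collagens, led by Col11a1, Col11a2, Col9a3 and Col1a1. In 3447 SP cells 11 of 27 tested collagens rose and 1 fell relative to neurosphere SP cells, where 10.7% and 8.94% of all 11908 tested genes did so (limma, Benjamini-Hochberg adjusted p under 0.05 over all genes). In 4346 SP cells 16 of 27 rose and 0 fell relative to neurosphere SP cells, beside 14.0% and 10.3% of all genes. The 16 include Col9a2, which passed the filter on dim probe sets only through its 4346 SP arrays. In 3447 non-SP cells 10 rose and 1 fell relative to neurosphere non-SP cells, beside 11.2% and 8.21%. The median log2 fold change of the 27 was 1.23, 2.25 and 0.87 in these 3 comparisons, against -0.03, 0.02 and 0.04 over all genes. The 2 SP comparisons share the neurosphere SP arrays, so they are not independent of each other. In all, 18 collagens passed the test in at least 1 comparison and 9 passed in none. Fibrillar collagens rose in 5 of 8, 7 of 8 and 4 of 8 cases in the 3 comparisons. Only 1 of the 6 type IV chains, Col4a2, rose in each. Among the other types, 5 of 13 rose and 1 fell in 3447 SP, 8 of 13 rose in 4346 SP, and 5 of 13 rose and 1 fell in 3447 non-SP cells.

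**Figure D1:**
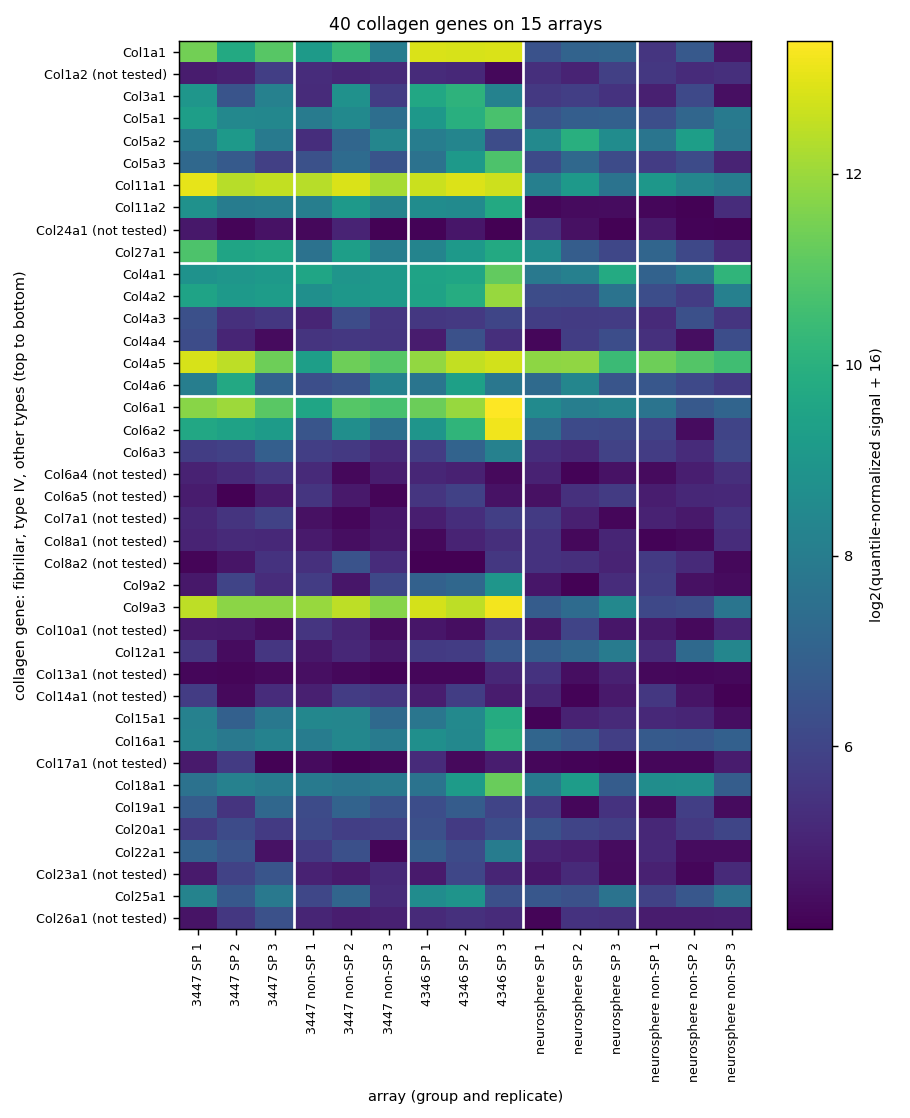
Collagen expression by array. Colour gives log2(quantile-normalized signal + 16) for the 40 collagen genes (rows, in the order fibrillar, type IV, other types) on the 15 arrays (columns, by group and replicate). Col11a1, Col9a3 and Col1a1 are higher in each of the 9 tumour arrays than in the 6 neurosphere arrays, and the 13 genes marked as not tested are dark throughout.

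Among the fibrillar collagens, both type XI chains on the array rose in all 3 tumour groups. Col11a1 (probe set 1449154_at), the alpha 1 chain of type XI, had signals of 7948, 5326 and 5631 in 3447 SP, 5576, 7221 and 4612 in 3447 non-SP and 6491, 7791 and 6595 in 4346 SP cells. Its signals were 244, 533 and 181 in neurosphere SP and 499.6, 332 and 231 in neurosphere non-SP cells. The lowest tumour array was thus several times above the highest neurosphere array. The log2 fold change was 4.37 ± 0.34 (SE) in 3447 SP (adjusted p = 2.06e-07) and 4.46 ± 0.34 in 4346 SP (1.47e-07), both against neurosphere SP cells. In 3447 non-SP against neurosphere non-SP cells it was 4.03 ± 0.34 (adjusted p = 4.33e-07). The 4346 SP value was 4.49 ± 0.39 without the third array. Its second probe set gave 4.78, 4.81 and 4.49.

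Col11a2 (1423578_at), the alpha 2 chain of type XI, had signals of 440, 246 and 267 in 3447 SP, 239, 539 and 294 in 3447 non-SP and 376, 346 and 822 in 4346 SP cells. Signals of 2.75, 3.82 and 6.15 were found in neurosphere SP cells, with 2.37, 1.67 and 19.2 in neurosphere non-SP cells. Neurosphere arrays were thus at background and every tumour array was far above it. The log2 fold change was 3.95 ± 0.41 in 3447 SP (adjusted p = 4.25e-06), 4.62 ± 0.41 in 4346 SP (7.69e-07) and 3.93 ± 0.41 in 3447 non-SP cells (4.12e-06). Leaving out the third 4346 SP array gave 4.24 ± 0.41. On the log2(signal + 16) scale such a fold change understates a change from background. All 6 of these type XI results passed under each of the 27 alternative settings tried.

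The bases upstream of Col11a1, the member with the smallest adjusted p in both SP comparisons, are shown because they hold 2 of the 4 promoter elements looked for below. They lie on the plus strand at chr3:114030290-114030478 in GRCm38.p6 (RefSeq), 189 bases that end at the border of the annotated gene. Capitals mark a GC box (GGGCGG) and a CCAAT box read on the other strand (ATTGG).
Col11a1: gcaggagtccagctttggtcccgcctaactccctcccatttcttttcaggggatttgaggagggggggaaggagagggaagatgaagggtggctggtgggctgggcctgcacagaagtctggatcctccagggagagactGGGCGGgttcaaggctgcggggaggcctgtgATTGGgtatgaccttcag

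Col1a1 (1455494_at), the alpha 1 chain of type I collagen, rose in all 3 tumour groups and had its highest signals in 4346 SP cells. It was at 2734, 865 and 1931 in 3447 SP, 554, 1309 and 252 in 3447 non-SP and 7573, 7366 and 7658 in 4346 SP cells. The neurosphere arrays gave 65.5, 113 and 122 (SP) and 28.2, 106 and 5.69 (non-SP). The tumour and neurosphere arrays did not overlap, and the 3 arrays of 4346 SP cells lay within 1.04-fold of each other. The log2 fold change was 3.85 ± 0.56 in 3447 SP (adjusted p = 1.32e-04), 6.0 ± 0.56 in 4346 SP (1.66e-06) and 3.60 ± 0.56 in 3447 non-SP cells (2.53e-04). With the third 4346 SP array left out it was 5.99 ± 0.65. A second Col1a1 probe set gave smaller differences of 1.31, 4.54 and 1.59, so the size of the change depends on the probe set.

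Col1a2, which encodes the other chain of type I collagen, was at background in all 5 groups. Its representative probe set was at 15.5, 8.96 and 74.5 in 3447 SP, 14.5, 22.1 and 13.5 in 3447 non-SP and 14, 13.3 and 3.41 in 4346 SP cells. Neurosphere SP cells gave 24.6, 16.1 and 46.4, and neurosphere non-SP cells 29.7, 29.1 and 20.5. It was above the array median on 0 of 15 arrays and was not tested. Levels of the 2 chains cannot be set against each other, because different probe sets differ in how strongly they bind.

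Col3a1 (1427884_at), the chain of type III collagen, which is laid down with type I in stretchable tissue, varied widely between tumour arrays. It was at 509, 66.6 and 286 in 3447 SP, 13.8, 436 and 28.4 in 3447 non-SP and 783, 1073 and 276 in 4346 SP cells. Signals of 33, 38 and 31.8 were found in neurosphere SP cells, with 13.6, 70.3 and 4.41 in neurosphere non-SP cells. Both SP tumour groups lay above neurosphere SP cells on every array, while the non-SP groups overlapped. The gene rose in 4346 SP cells, by 3.69 ± 0.80 on the log2 scale (adjusted p = 0.00335), or 4.24 ± 0.88 without the third array (0.00349). It missed the threshold in 3447 SP, at 2.26 ± 0.80 (0.0607), and in 3447 non-SP cells, at 1.42 ± 0.80 (0.25). Without 3447 SP replicate 2 the 3447 SP value was 2.95 and passed (0.0275), and without 3447 non-SP replicate 2, which left 2.26, it passed at 0.0174.

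The type V chains, which regulate fibre diameter, gave different calls: Col5a1 rose in both SP tumour groups, Col5a3 in 4346 SP cells, and Col5a2 in none. Col5a1 (1434479_at) was at 636, 339.7 and 329 in 3447 SP, 217, 350.4 and 161 in 3447 non-SP and 511, 965 and 1659.8 in 4346 SP cells, against 66.8, 98.7 and 108 in neurosphere SP and 60.9, 148 and 216 in neurosphere non-SP cells. It rose in both SP groups, by 1.95 ± 0.45 in 3447 SP (adjusted p = 0.00595) and 3.14 ± 0.45 in 4346 SP (1.15e-04; 2.73 ± 0.46 without the third array), while 3447 non-SP overlapped with neurosphere non-SP cells (0.84 ± 0.45, 0.224). Further Col5a1 probe sets, 1416740_at and 1416741_at, gave 0.59 and 1.98 in 3447 SP and 1.86 and 3.17 in 4346 SP cells. In 3447 non-SP cells they gave 0.66 and 0.72. The size of the Col5a1 rise thus depends on the probe set. Col5a3 (1419703_at) was at 153, 82.9 and 76.4 in 3447 SP, 53.8, 149 and 68.8 in 3447 non-SP and 167, 534 and 1739 in 4346 SP cells. Neurosphere SP cells gave 53.2, 130.2 and 60.9, and neurosphere non-SP cells 34.9, 73.2 and 13.2. It was thus raised in 4346 SP cells, with a 10.4-fold spread among the 3 arrays, and rose there by 2.63 ± 0.63 (adjusted p = 0.00619), or by 1.81 ± 0.55 without the third array (0.0324). In 3447 SP it differed by 0.07 ± 0.63 (0.956) and in 3447 non-SP by 1.10 ± 0.63 (0.252). A second Col5a3 probe set, 1425984_at, was dim and did not pass the filter. It gave -0.45 in 4346 SP cells, with mean signals of 6.43 there and 20.2 in neurosphere SP cells. Col5a2 was lower in the tumour groups without passing, at -0.72, -1.48 and -1.32 (adjusted p from 0.146 to 0.536). Col27a1 (1429549_at), a fibrillar chain known from cartilage, was at 1748, 744 and 787 in 3447 SP, 165, 613 and 256 in 3447 non-SP and 294, 537 and 824 in 4346 SP cells, against 362, 97 and 54.7 in neurosphere SP and 120.4, 69 and 18.5 in neurosphere non-SP cells. In 4346 SP cells its arrays overlapped with those of neurosphere SP cells; in the other 2 comparisons they did not. It rose by 2.82 ± 0.63 in 3447 SP (adjusted p = 0.00476), by 1.88 ± 0.63 in 4346 SP (0.0406) and by 2.16 ± 0.63 in 3447 non-SP cells (0.0245). The 4346 SP call was lost without 1 of 5 arrays: 4346 SP replicate 2 (1.84, 0.0845) or 3 (1.55, 0.147), neurosphere SP replicate 2 (1.72, 0.113) or 3 (1.33, 0.168), and 3447 non-SP replicate 3 (1.88, 0.0515). Counting settings of the processing too, that call was lost in 11 of the 27 alternatives. Among these were no filter (1.88, 0.0579), a fit of only the groups compared (1.88, 0.076) and an added constant of 1 (2.05, 0.0512). The 3447 non-SP call was lost without 3447 non-SP replicate 2 (1.67, 0.12) or 3 (2.28, 0.0519) or neurosphere non-SP replicate 2 (2.14, 0.0613) or 3 (1.70, 0.0984). The last fibrillar member, Col24a1, was at most 25 on any array and was not tested.

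**Figure D2:**
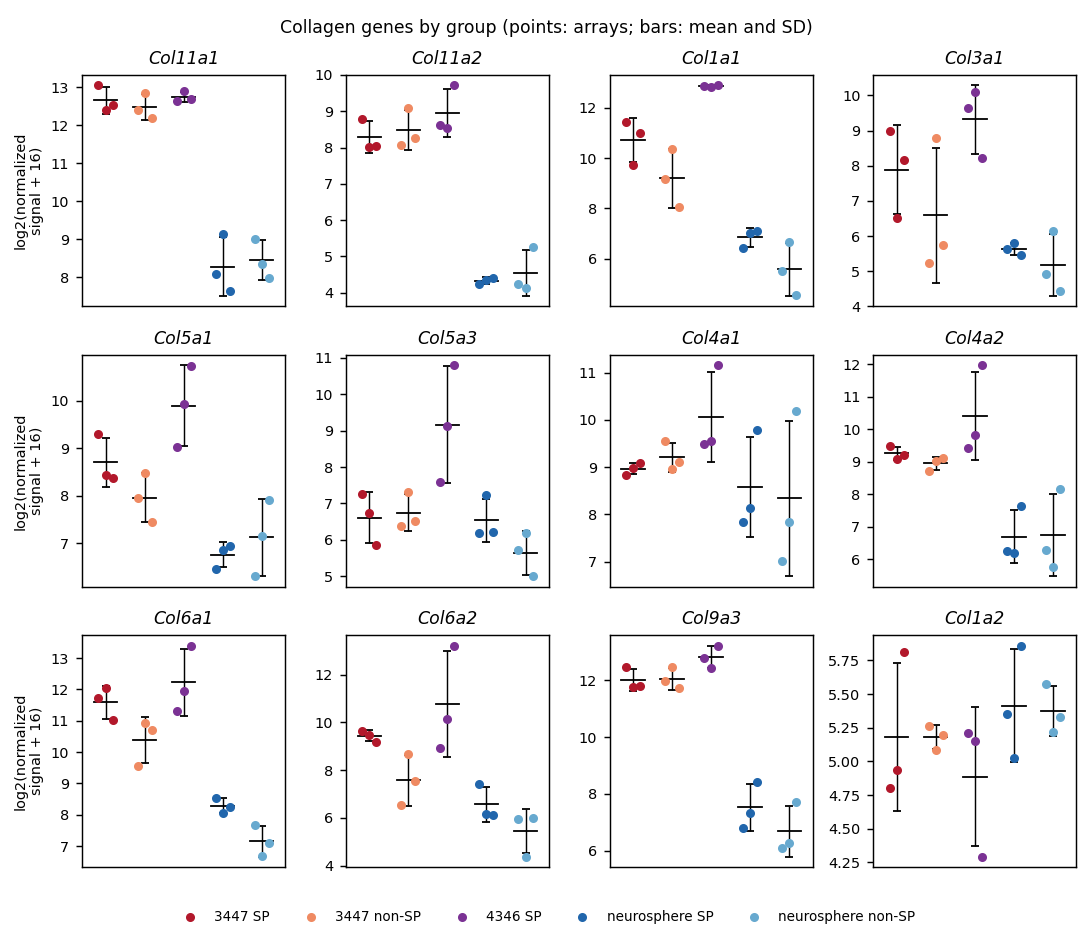
Signals of 12 collagens by group. Each panel plots log2(quantile-normalized signal + 16) of 1 gene; points are arrays, and bars give the group mean and SD (n = 3 each), with groups ordered 3447 SP, 3447 non-SP, 4346 SP, neurosphere SP, neurosphere non-SP; y axes differ between panels and do not start at 0. Tumour and neurosphere points are fully apart for Col11a1, Col11a2, Col1a1, Col4a2, Col6a1 and Col9a3, while those for Col4a1 and Col1a2 overlap.

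Of the 2 chains that make up the common type IV collagen, Col4a2 rose in all 3 tumour groups and Col4a1 did not pass. Col4a2 (1424051_at) was at 715, 543 and 573 in 3447 SP, 396, 509 and 556 in 3447 non-SP and 676, 897 and 3979 in 4346 SP cells, against 56.2, 56.4 and 181 in neurosphere SP and 60.5, 49.8 and 262 in neurosphere non-SP cells. All tumour arrays were above all neurosphere arrays. It rose by 2.56 ± 0.62 in 3447 SP (adjusted p = 0.00821), 3.72 ± 0.62 in 4346 SP (4.32e-04) and 2.22 ± 0.62 in 3447 non-SP cells (0.0189). Without the third 4346 SP array its value there was 2.94 ± 0.56 (0.00196). The 3447 non-SP call was lost without 3447 non-SP replicate 2 (2.19, 0.0563) or 3 (2.14, 0.0638), or neurosphere non-SP replicate 1 (2.00, 0.0733) or 2 (1.73, 0.092).

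Col4a1 (1452035_at) was at 456, 502 and 519 in 3447 SP, 728, 488 and 554 in 3447 non-SP and 697, 725 and 2274 in 4346 SP cells. The neurosphere arrays gave 199.9, 259 and 852 (SP) and 109, 233 and 1159 (non-SP). The third array of each neurosphere group was above most tumour arrays, so the groups overlapped in all 3 comparisons. Col4a1 did not pass, at 0.38 ± 0.66 in 3447 SP (adjusted p = 0.74), 1.47 ± 0.66 in 4346 SP (0.12) and 0.87 ± 0.66 in 3447 non-SP cells (0.411). With the replicate number as a block among neurospheres, the 4346 SP value of 1.47 ± 0.38 passed (0.00831). It also passed without neurosphere SP replicate 3 (2.08, 0.0407) or neurosphere non-SP replicate 3 (1.47, 0.0377), and without the third 4346 SP array it was 0.93 ± 0.70 (0.392). The RefSeq starts of Col4a1 and Col4a2 are 21 bases apart on opposite strands, a head-to-head pair. The difference between the genes was not itself tested.

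The other type IV chains, found in specialised basement membranes such as those of kidney, did not pass in any comparison. Col4a5 was well detected in every group, from 601 to 7059 in tumour cells and 1352 to 3685 in neurosphere cells, and differed by 0.83 ± 0.50, 1.02 ± 0.50 and -0.40 ± 0.50 in 3447 SP, 4346 SP and 3447 non-SP cells (adjusted p from 0.15 to 0.639). Col4a6, whose start is 1343 bases from that of Col4a5 on the other strand, differed by 0.87, 0.86 and 0.87 with an SE of 0.67. Col4a3 and Col4a4 were at most 83.8 on any array, with differences from -0.22 to 0.18.

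Type VI collagen is assembled from 3 different chains, and Col6a1 and Col6a2 rose in tumour cells. Col6a1 (1448590_at) was at 3384, 4163 and 1973 in 3447 SP, 737, 1918 and 1645 in 3447 non-SP and 2549, 4058 and 11156 in 4346 SP cells, against 344, 245 and 286 in neurosphere SP and 182, 107 and 109 in neurosphere non-SP cells. Every tumour array was above every neurosphere array. The log2 fold change was 3.30 ± 0.47 in 3447 SP (adjusted p = 9.83e-05), 3.94 ± 0.47 in 4346 SP (1.82e-05) and 3.25 ± 0.47 in 3447 non-SP cells (1.15e-04). Without the third 4346 SP array it was 3.35 ± 0.41 (6.06e-05).

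Col6a2 (1452250_a_at) was at 812, 708 and 562 in 3447 SP, 62.5, 399 and 172 in 3447 non-SP and 478, 1126 and 9946 in 4346 SP cells, against 145, 55 and 57.2 in neurosphere SP and 44.7, 6.69 and 40.8 in neurosphere non-SP cells. No arrays overlapped in the 3 comparisons, and the 4346 SP arrays spread 20.8-fold. It rose by 2.86 ± 0.81 in 3447 SP (adjusted p = 0.0207) and 4.20 ± 0.81 in 4346 SP (0.0014), or by 2.98 ± 0.62 in 4346 SP without the third array (0.00371). In 3447 non-SP cells it missed the threshold, at 2.14 ± 0.81 (0.0801). The 3447 SP call was lost without 3447 SP replicate 1 (2.75, 0.0649) or 2 (2.85, 0.0535) or neurosphere SP replicate 2 (2.66, 0.0642) or 3 (2.64, 0.0643). Col6a3, which encodes the long remaining chain, ran from 26.7 to 269 in 4346 SP and 17.2 to 48.6 in neurosphere SP cells. It rose there by 1.55 ± 0.52 (0.0416), but by 0.95 ± 0.49 without the third array (0.202). That call was lost in 14 of the 27 alternatives. Among them were leaving out 4346 SP replicate 2 (1.52, 0.0868), neurosphere SP replicate 1 (1.49, 0.0999) or 2 (1.37, 0.124), neurosphere non-SP replicate 1 (1.55, 0.0509), or 3447 non-SP replicate 1 (1.55, 0.052) or 2 (1.55, 0.0525). Col6a3 did not pass in 3447 SP cells, at 0.76 ± 0.52 (0.347), or 3447 non-SP cells, at -0.13 ± 0.52 (0.898). Col6a4 and Col6a5 were not tested.

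Col6a1 and Col6a2 are neighbours on chromosome 10 with 0 protein-coding genes between them, so the 250 bases upstream of each gene are shown side by side. Both run on the minus strand, Col6a1 at chr10:76726045-76726294 and Col6a2 at chr10:76623631-76623880 (GRCm38.p6, RefSeq). Capitals mark a GC box read on the other strand (CCGCCC), which the Col6a2 stretch holds and the Col6a1 stretch does not.
Col6a1: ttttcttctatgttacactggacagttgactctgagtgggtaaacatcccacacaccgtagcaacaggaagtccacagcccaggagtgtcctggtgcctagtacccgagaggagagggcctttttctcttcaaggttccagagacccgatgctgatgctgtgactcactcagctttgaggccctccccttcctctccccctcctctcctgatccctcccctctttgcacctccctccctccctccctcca
Col6a2: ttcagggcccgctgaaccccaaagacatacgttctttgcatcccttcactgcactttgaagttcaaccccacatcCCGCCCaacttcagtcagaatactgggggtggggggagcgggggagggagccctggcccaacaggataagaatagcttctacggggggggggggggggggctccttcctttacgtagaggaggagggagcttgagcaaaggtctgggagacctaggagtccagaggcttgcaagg

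A GC box (GGGCGG on either strand, an element bound by Sp1 and related factors) lay within 250 bases upstream for 20 of the 32 collagens with a RefSeq promoter window, or 62.5%. The share was 32.7% over all 32851 windows and 42.6% over the 21263 windows of protein-coding genes. Each collagen was read from its window furthest upstream, while the background shares count every window, so the sets of starts were chosen differently. A CCAAT box (CCAAT on either strand) lay in 12 of 32, or 37.5%, against 33.8% of all windows. A TATA box (TATAAA) lay in 5 of 32, or 15.6%, against 12.4%, and a SOX core (ACAAAG) in 3 of 32, or 9.4%, against 16.5%. Both strands were searched for each motif, and 0 of these motifs holds another. Among the 14 members that rose in some comparison and had a window, 9 held a GC box, which is 64.3% and close to the share of all 32. A match is only a run of letters, not a site shown to be used.

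Among the fibril-associated collagens, Col9a3 (1460693_a_at), a type IX chain that decorates fibres in cartilage, rose in all 3 tumour groups. It was at 5332, 3535 and 3385 in 3447 SP, 4094, 5558 and 3307 in 3447 non-SP and 7182, 5660.1 and 9994 in 4346 SP cells. Neurosphere SP cells gave 89.2, 143 and 321, and neurosphere non-SP cells 50, 76.6 and 183. Each tumour array was at least several times above each neurosphere array. The log2 fold change was 4.48 ± 0.43 in 3447 SP (adjusted p = 2.41e-06), 5.30 ± 0.43 in 4346 SP (3.50e-07) and 5.37 ± 0.43 for 3447 non-SP cells (2.80e-07). The 4346 SP value was 5.10 ± 0.49 without the third array. Another Col9a3 probe set gave 5.59, 6.35 and 5.31, while 1420280_x_at stayed near background and gave 0.18, 0.24 and -0.06.

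Col9a2 (1450673_at), a second type IX chain, was at 12.7, 38.3 and 45.6 in 3447 SP, 26.4, 12.3 and 43.6 in 3447 non-SP and 100.2, 122 and 484 in 4346 SP cells. Signals of 9.48, 1.31 and 26.3 were found in neurosphere SP cells, with 36.4, 9.97 and 3.49 in neurosphere non-SP cells. It stood clear of the neurosphere arrays in 4346 SP cells, where it rose by 3.04 ± 0.59 (adjusted p = 0.00146), or 2.41 ± 0.59 without the third array (0.00957). Col9a2 was above the array median on the 3 arrays of 4346 SP cells and on 0 arrays of every other group. It thus passed the filter only through the group where it was then called. That call was kept in each of the 27 alternatives, no filter among them. It did not pass in 3447 SP (0.63 ± 0.59, 0.508) or 3447 non-SP cells (0.62 ± 0.59, 0.524). Col12a1, a fibril-associated collagen of tendon and other dense tissue, was the only member that fell. It ran from 2.66 to 62 in 3447 SP, 5.03 to 23.2 in 3447 non-SP and 25.1 to 73.5 in 4346 SP cells, against 87.4 to 226 in neurosphere SP and 19.1 to 307 in neurosphere non-SP cells. It fell by 2.15 on the log2 scale in 3447 SP (SE 0.62, adjusted p = 0.0228) and by 2.11 in 3447 non-SP cells (SE 0.62, 0.0249), and was at -1.30 ± 0.62 in 4346 SP cells (0.143). With the replicate number as a block among neurospheres, the 4346 SP value of -1.30 ± 0.45 passed (0.0427). The non-SP groups overlapped in deposited signal and not after quantile normalization. The 3447 SP call was lost without 3447 SP replicate 2 (-1.77, 0.093) or neurosphere SP replicate 3 (-1.83, 0.0903), and without quantile normalization (-1.86, 0.0766). The 3447 non-SP call was lost without 3447 non-SP replicate 1 (-2.03, 0.0753) or 3 (-2.03, 0.0757), or neurosphere non-SP replicate 2 (-1.95, 0.0803) or 3 (-1.39, 0.122). A fit of only the groups compared lost it too (-2.11, 0.06). Further Col12a1 probe sets were dim and did not pass the filter. They gave -1.17, 0 and 0.26 in 3447 SP and -0.9, -0.09 and -0.35 in 3447 non-SP cells, so the fall rests on a single probe set.

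Col16a1 (1427986_a_at), which binds fibre surfaces, was at 307, 216 and 297 in 3447 SP, 227, 329 and 238 in 3447 non-SP and 408, 317 and 1045 in 4346 SP cells, against 113, 85.8 and 44.2 in neurosphere SP and 85.9, 104 and 97.3 in neurosphere non-SP cells. Tumour and neurosphere arrays did not overlap. It rose by 1.57 ± 0.39 in 3447 SP (adjusted p = 0.00973), 2.54 ± 0.39 in 4346 SP (2.15e-04) and 1.35 ± 0.39 for 3447 non-SP cells (0.0226). Leaving out the third 4346 SP array gave 2.05 ± 0.34. The 3447 SP call was lost without neurosphere SP replicate 3 (1.21, 0.0506), and the 3447 non-SP call without replicate 1 (1.42, 0.0514) or 2 (1.21, 0.0873) of 3447 non-SP or replicate 1 (1.32, 0.0643) or 2 (1.29, 0.0648) of neurosphere non-SP cells.

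Types XV and XVIII are proteoglycans of basement membrane zones, and the C-terminal part of type XVIII is released as endostatin. Col15a1 (1448755_at) was at 287, 102 and 229 in 3447 SP, 304, 317 and 141 in 3447 non-SP and 191, 334 and 879.6 in 4346 SP cells, against 1.78, 15 and 24.6 in neurosphere SP and 18.5, 23.8 and 4.18 in neurosphere non-SP cells. The neurosphere arrays were at background and no array overlapped. It rose by 2.86 ± 0.50 in 3447 SP (adjusted p = 7.20e-04), 3.90 ± 0.50 in 4346 SP (4.04e-05) and 3.13 ± 0.50 in 3447 non-SP cells (3.20e-04). Leaving out the third 4346 SP array gave 3.33 ± 0.48. Col18a1 (1426955_at) was at 193, 281 and 251 in 3447 SP, 209, 198 and 218 in 3447 non-SP and 177, 566 and 2470.1 in 4346 SP cells, against 210.4, 575 and 95 in neurosphere SP and 381, 414 and 88.2 in neurosphere non-SP cells. All 3 comparisons overlapped, and the third 4346 SP array stood above all others. It differed by -0.07 ± 0.74 in 3447 SP (0.963), 1.40 ± 0.74 in 4346 SP (0.184) and -0.24 ± 0.74 in 3447 non-SP cells (0.863). In 4346 SP cells it was at 0.45 ± 0.66 without the third array (0.683) and passed without the first (2.27, 0.0287).

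Of the remaining types, Col22a1, found at tissue junctions such as that of muscle and tendon, ran from 48.3 to 229 in 4346 SP and 5.86 to 16.7 in neurosphere SP cells and rose by 2.25 ± 0.65 (adjusted p = 0.0196). That call was lost without 4346 SP replicate 3 (1.76, 0.0961) or neurosphere SP replicate 3 (2.06, 0.0615). Col19a1, a rare fibril-associated chain, ran from 45.1 to 121 in 3447 non-SP and 3.23 to 52.2 in neurosphere non-SP cells by deposited signal. It rose by 1.73 ± 0.54 (0.032), a call lost without any 1 of 5 arrays: 3447 non-SP replicate 1 (1.91, 0.0521), 2 (1.5, 0.121) or 3 (1.80, 0.0703) and neurosphere non-SP replicate 1 (1.47, 0.121) or 3 (1.51, 0.0984). It was also lost without quantile normalization (1.56, 0.0988). Col25a1, a membrane collagen known from amyloid plaques, and Col20a1 passed in no comparison. The 13 collagens not tested were Col1a2, Col24a1, Col6a4, Col6a5, Col7a1, Col8a1, Col8a2, Col10a1, Col13a1, Col14a1, Col17a1, Col23a1 and Col26a1. Their 23 probe sets never exceeded 126 signal units and were above the array median on at most 1 array each, so low expression was not resolved for them. For the called collagens with further probe sets, 33 results from those probe sets could be set beside the calls and 3 pointed the other way, of which 1 passed the dimness filter, the Col9a3 probe set named above. The others came from the dim Col12a1 and Col5a3 probe sets given above.

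**Figure D3:**
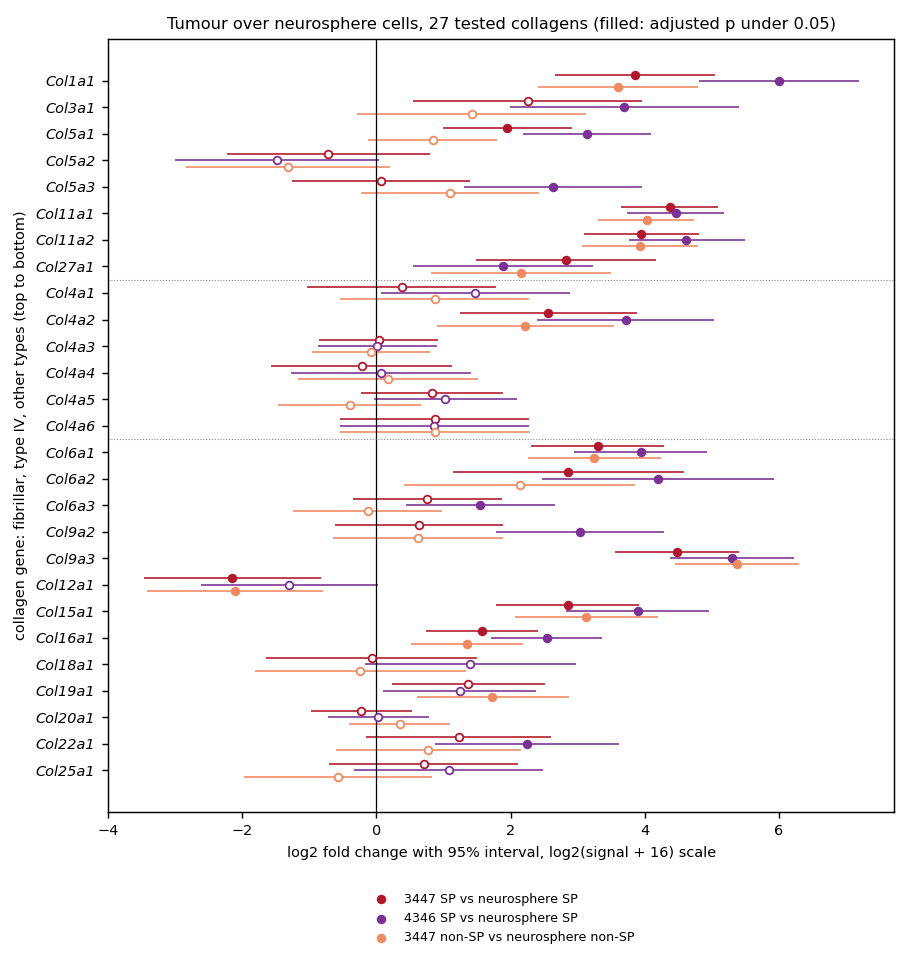
Tumour against neurosphere cells. For each of the 27 tested collagens the log2 fold change on the log2(signal + 16) scale is plotted with its 95% interval in 3447 SP and 4346 SP (each against neurosphere SP) and 3447 non-SP (against neurosphere non-SP); filled points have an adjusted p under 0.05. The filled points lie right of 0 except those of Col12a1, and Col1a1 in 4346 SP cells reaches furthest, at 6.0.

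Between the tumour lines, with the third 4346 SP array included, 3447 SP cells mostly had lower collagen signals than 4346 SP cells, but no single collagen passed the test. Of 27 collagens 0 passed in 3447 SP against 4346 SP cells, beside 0.462% of all genes higher and 1.19% lower. At an unadjusted p under 0.05, 5 of 27 differed, beside 16.6% of all genes. The median log2 fold change was -0.81, against -0.04 over all genes, and 22 of 27 were below 0. This median and count include the third 4346 SP array and are not given without it. That array was the highest of its group for 19 of the 27 collagens, or 70.4%, against 41.2% of all genes. In 6 collagens every 3447 SP array was below every 4346 SP array after normalization (Col1a1, Col5a3, Col4a1, Col9a2, Col12a1 and Col16a1), beside 10.6% of all genes. The smallest adjusted p were those of Col5a3, at -2.56 ± 0.63 (0.0523), Col9a2, at -2.40 ± 0.59 (0.0541), and Col1a1, at -2.15 ± 0.56 (0.0675). With the replicate number as a block among neurospheres these 3 passed, at 0.0321, 0.0402 and 0.0407. They passed too with arrays centred on their medians in place of quantile normalization, or with 64 added in place of 16. Without the third 4346 SP array their values were -1.75 (0.213), -1.78 (0.236) and -2.13 (0.186). For Col1a1 that array thus left the size of the difference nearly as it was. Leaving out 1 other array brought 1 or 2 of them past the threshold. Col1a1 passed without 3447 non-SP replicate 2 (0.0465), neurosphere non-SP replicate 2 (0.0494) or 3 (0.0459). Col5a3 passed without 4346 SP replicate 1 (-3.35, 0.00614) or neurosphere non-SP replicate 3 (0.0481), and Col9a2 without 4346 SP replicate 2 (-2.66, 0.0497). As given above, Col9a2 entered the test only through its 4346 SP arrays.

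No collagen passed the test between SP and non-SP cells of the same origin. In 3447 SP against 3447 non-SP cells 0 of 27 passed in limma, where 0.00840% of all genes were higher. At an unadjusted p under 0.05, 6 of 27 differed, beside 7.21% of all genes. The 6 were Col4a5 (1.68 ± 0.50), Col27a1 (1.68 ± 0.63), Col6a2 (1.85 ± 0.81), Col1a1 (1.52 ± 0.56), Col25a1 (1.45 ± 0.66) and Col6a1 (1.20 ± 0.47), with adjusted p from 0.391 to 0.682. All 6 were higher in SP cells. In Col4a5, Col27a1, Col6a1 and Col6a2 each 3447 SP array was above each 3447 non-SP array, which held for 9.07% of all genes. For Col4a5 3447 SP arrays gave 6704, 5539.9 and 2513, against 601, 2585 and 1963 for 3447 non-SP arrays. Those 2 groups overlapped before quantile normalization and not after it. Over the 27 the median was 0.31, and 17 were above 0.

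In neurosphere SP against neurosphere non-SP cells 0 of 27 passed, beside 0.0168% of all genes, and at an unadjusted p under 0.05 there were 2, beside 3.59%. These were Col1a1 (1.27 ± 0.56) and Col6a1 (1.14 ± 0.47), each with an adjusted p of 1. Col6a1 and Col6a2 did not overlap between the groups, higher in SP cells, as in 4.35% of all genes. The difference between the SP effects of 3447 and neurosphere cells was tested too. It passed for 0 of 27 collagens in limma, as for 0.00% of all genes, and 0 of 27 had an unadjusted p under 0.05, beside 2.23% of all genes.

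**Figure D4:**
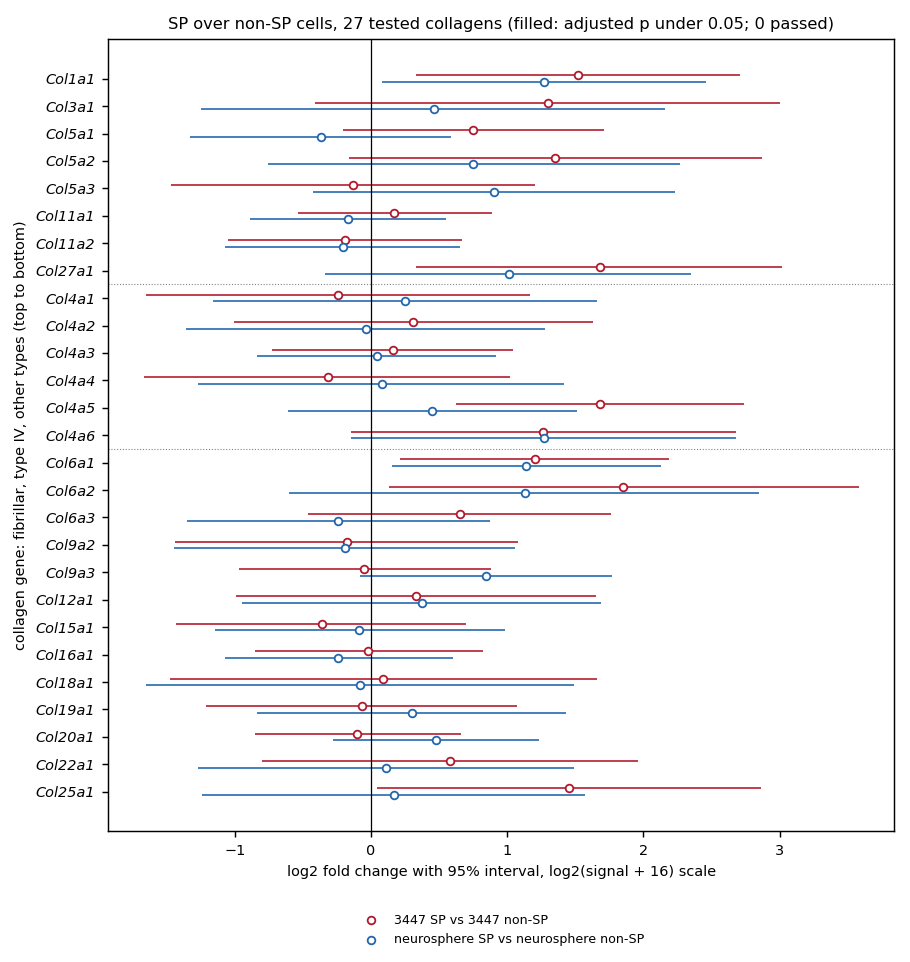
SP against non-SP cells. The log2 fold change of each of the 27 tested collagens is plotted with its 95% interval for 3447 SP against 3447 non-SP and for neurosphere SP against neurosphere non-SP cells. All points are open, since 0 passed the adjusted threshold, and they range from -0.37 to 1.85.

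Genes that modify and fold collagen chains were followed from a list of 19 tested genes. In 3447 SP cells 4 rose and 0 fell relative to neurosphere SP cells, in 4346 SP cells 9 rose and 0 fell, and in 3447 non-SP cells 3 rose and 1 fell relative to neurosphere non-SP cells. Of all genes 10.7%, 14.0% and 11.2% rose in these comparisons, so 3 of 19, or 15.8%, is near the background. With 1 array left out, 2 to 5 rose in 3447 SP, 6 to 9 in 4346 SP and 1 to 5 in 3447 non-SP cells. The count was 2 in 3447 SP without 3447 SP replicate 1 or neurosphere SP replicate 1, and 6 in 4346 SP without 4346 SP replicate 3 or neurosphere SP replicate 1 or 2. It was 1 in 3447 non-SP without 3447 non-SP replicate 2 or neurosphere non-SP replicate 1 or 2. The gene that fell there was Tmem38b, at -0.84 (adjusted p = 0.0388), a call lost in 10 of the 27 alternatives. Leaving out 3447 non-SP replicate 2 was among them (-0.93, 0.0611). The median log2 fold change in 3447 SP was 0.32, against -0.03 over all genes. P4ha2, a subunit of the prolyl 4-hydroxylase that stabilises the triple helix, was at 427, 581 and 685 in 3447 SP, 721, 354 and 721 in 3447 non-SP and 615, 1014 and 343 in 4346 SP cells. The neurosphere arrays gave 26.2, 64.3 and 46.8 (SP) and 2.18, 63.1 and 67.5 (non-SP). It rose in all 3 comparisons without overlap, by 3.25 ± 0.52 in 3447 SP (adjusted p = 3.05e-04), 3.40 ± 0.52 in 4346 SP (1.91e-04) and 3.59 ± 0.52 for 3447 non-SP cells (1.23e-04). The 4346 SP value was 3.78 without the third array. P3h1, a prolyl 3-hydroxylase, rose by 1.49 ± 0.34 in 3447 SP (0.00542) and 1.60 ± 0.34 in 4346 SP cells (0.00272; 1.39 without the third array). P3h1 also rose in 3447 non-SP cells, by 1.18 (0.0222), a call lost in 3 of the 27 alternatives. Fkbp14, a proline isomerase that helps chains fold, rose by 1.82 ± 0.46 in 3447 SP (0.0107) and 2.19 ± 0.46 in 4346 SP cells (0.00269; 2.23 without the third array). Its rise in 3447 non-SP cells was 1.43 (0.0388), a call lost in 10 of the 27 alternatives. The Fkbp14 call in 3447 SP was lost without 3447 SP replicate 1 (1.63, 0.0507) or neurosphere SP replicate 1 (1.43, 0.0605). Creb3l1, a transcription factor of the secretory pathway, was the fourth gene to rise in 3447 SP cells, by 1.08 ± 0.36 (0.0478), a call lost in 19 of the 27 alternatives.

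Serpinh1, the chaperone HSP47 that holds procollagen in the endoplasmic reticulum, set the tumour lines apart. It was at 48.1, 995 and 187 in 3447 SP, 70.4, 28.9 and 328 in 3447 non-SP and 7002, 7001 and 7416 in 4346 SP cells, against 362, 969 and 516 in neurosphere SP and 213, 257 and 304 in neurosphere non-SP cells. The 4346 SP arrays were at least 7001, and all other arrays were at most 995. In 3447 SP it was lower than in 4346 SP cells by -5.04 ± 0.80 (adjusted p = 0.00341), and -5.01 without the third 4346 SP array (0.0168). It rose in 4346 SP against neurosphere SP cells by 3.56 ± 0.80 (0.00425; 3.53 without the third array) and did not pass in 3447 SP, at -1.48 ± 0.80 (0.221). Pcolce, an enhancer of procollagen cleavage, was at 204, 161 and 56.6 in 3447 SP and 509, 631 and 5328 in 4346 SP cells, and at 40.1, 59.9 and 52.4 in neurosphere SP cells. In 3447 SP it was lower than in 4346 SP cells by -3.38 ± 0.70 (0.0187), and in 4346 SP it rose over neurosphere SP cells by 4.20 ± 0.70 (3.87e-04). Without the third 4346 SP array these were -2.32 (0.0491) and 3.15 (6.86e-04), and without the third 3447 SP array the difference between lines was -2.68 and did not pass (0.104). The Serpinh1 difference between lines missed the threshold only with array 3 of both lines left out (0.0672). Of the 19 folding and modifying genes 2 were lower and 0 higher in 3447 SP than in 4346 SP cells, beside 1.19% and 0.462% of all genes. Besides Serpinh1 this was P3h4, at -1.53 (0.0404), a call lost in 13 of the 27 alternatives, also without the third 4346 SP array (-1.23, 0.177).

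Of 7 tested genes of propeptide cleavage and cross-linking, 3 rose in 3447 SP, 5 in 4346 SP and 2 among 3447 non-SP cells against neurospheres, and 0 fell, beside 10.7%, 14.0% and 11.2% of all genes higher. In 3447 SP these were Tgm2, Adamts3 and Sfrp1, and in 3447 non-SP cells Tgm2 and Sfrp1. Those of 4346 SP cells were Tgm2, Pcolce, Loxl3, Pcolce2 and Adamts3. The 3447 SP calls of Adamts3 and Sfrp1 were lost in 4 and 6 of the 27 alternatives. In 4346 SP the calls of Loxl3, Pcolce2 and Adamts3 were lost in 3, 3 and 6. With 1 array left out, 1 to 4 rose in 3447 SP, 3 to 5 in 4346 SP and 2 to 4 in 3447 non-SP cells. The count was 1 in 3447 SP without 3447 SP replicate 1 or 3, and 3 in 4346 SP without 4346 SP replicate 2 or 3 or neurosphere SP replicate 1. It exceeded 2 in 3447 non-SP without 4346 SP replicate 3, neurosphere SP replicate 1 or 3, or neurosphere non-SP replicate 2 or 3. Tgm2, a transglutaminase that cross-links matrix proteins, was at 2404, 1355 and 2102 in 3447 SP, 1332, 2523 and 1336 in 3447 non-SP and 3628, 2672 and 6244 in 4346 SP cells, against 87.1, 107 and 187 in neurosphere SP and 69.4, 121 and 48.1 in neurosphere non-SP cells. It rose without overlap by 3.77 ± 0.37 in 3447 SP (adjusted p = 2.41e-06), 4.79 ± 0.37 in 4346 SP (1.57e-07) and 4.21 ± 0.37 for 3447 non-SP cells (6.36e-07). The 4346 SP value was 4.45 without the third array. Of 15 tested matrix proteins that bind collagen, 6 rose and 1 fell in 3447 SP, 8 rose in 4346 SP, and 5 rose and 1 fell in 3447 non-SP cells. Beside this, 10.7%, 14.0% and 11.2% of all genes were higher and 8.94%, 10.3% and 8.21% lower. With 1 array left out, 5 to 8 rose in 3447 SP, 8 in 4346 SP and 5 to 8 in 3447 non-SP cells, with 8 in 3447 non-SP without neurosphere non-SP replicate 3. Bgn, the small proteoglycan biglycan, was at 2457, 2969 and 3612 in 3447 SP, 794, 1094 and 1228 in 3447 non-SP and 2805, 3933 and 9104 in 4346 SP cells. In neurospheres it was at most 71.9. The gene that fell in both 3447 comparisons was Fbln2, a fibulin of elastic fibres and basement membranes, at -2.51 ± 0.43 for SP (5.37e-04) and -2.48 ± 0.43 for non-SP cells (5.94e-04).

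Of 8 tested collagen receptors, 2 rose in 3447 SP, 1 in 4346 SP and 1 among 3447 non-SP cells against neurospheres, and 0 fell. Of all genes 10.7%, 14.0% and 11.2% rose, so 1 of 8, or 12.5%, is near the background. The second gene in 3447 SP was Itgb1, at 0.69 ± 0.22 (0.0349), a call lost in 8 of the 27 alternatives, among them leaving out any 1 array of 3447 SP or neurosphere SP cells. In 4346 SP cells 0 rose without neurosphere SP replicate 2. Itga1, the alpha chain of the collagen-binding integrin alpha 1 beta 1, was at 3572, 1246 and 1524 in 3447 SP, 1093, 2373 and 1583 in 3447 non-SP and 1118, 1189.7 and 1923 in 4346 SP cells, against 377, 154 and 510.3 in neurosphere SP and 438, 123 and 532 in neurosphere non-SP cells. No tumour array overlapped with a neurosphere array. It rose by 2.51 ± 0.56 in 3447 SP (adjusted p = 0.00432), 2.04 ± 0.56 in 4346 SP (0.0141) and 2.39 ± 0.56 for 3447 non-SP cells (0.00611). The 4346 SP call was lost without 4346 SP replicate 3 (1.79, 0.0596) or neurosphere SP replicate 2 (1.56, 0.0724). Within an origin, 0 genes of these 4 lists passed between SP and non-SP cells.

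**Figure D5:**
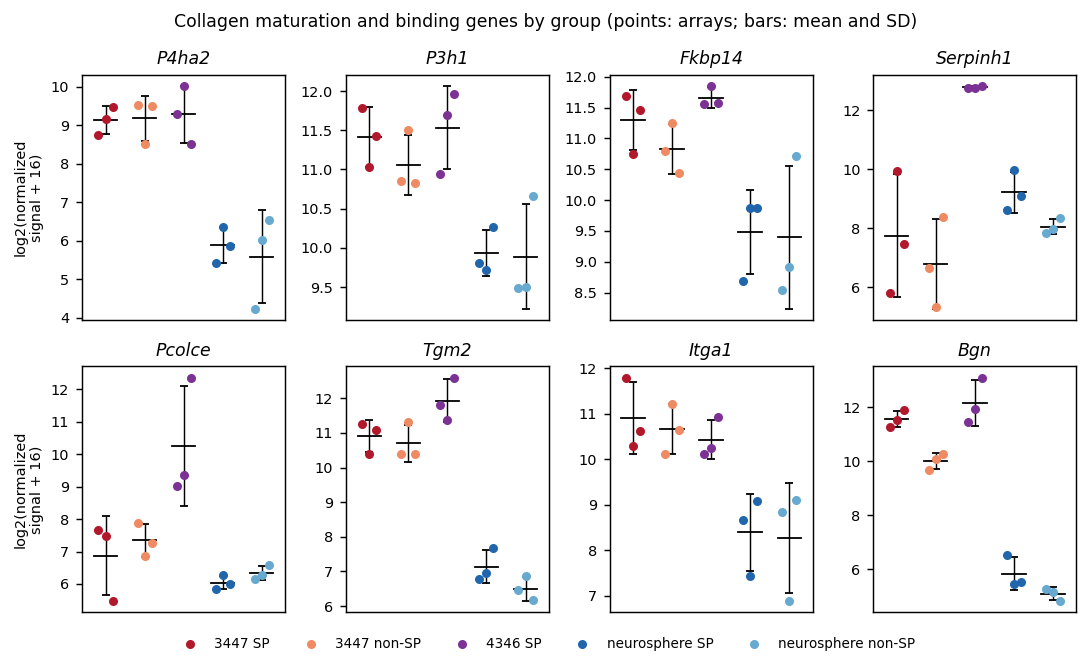
Genes of collagen maturation and binding. Each panel plots log2(quantile-normalized signal + 16) of 1 gene by array (points) with the group mean and SD (bars, n = 3 each), in the order 3447 SP, 3447 non-SP, 4346 SP, neurosphere SP, neurosphere non-SP. P4ha2, Tgm2, Itga1 and Bgn separate tumour from neurosphere arrays, while Serpinh1 is high in the 3 arrays of 4346 SP cells alone.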

How the data were processed

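RNA of 15 samples in 5 groups of 3 was extracted with a micro-scale column kit, amplified with NuGEN Ovation Pico, biotin-labelled and hybridised to Affymetrix mouse arrays, per the labels' protocols. The deposited values are linear intensity signals made by the authors with MAS5 in Affymetrix Expression Console, per the submitters' processing notes; these notes name no version. The trimmed mean is 500 on every array. MAS5 combines the probes of a probe set after subtracting mismatch signal, so low signals are noisy and signals of different probe sets cannot be compared.

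Of 45101 probe sets, 34945 have 1 gene symbol, 932 several and 9160 none, and 64 are controls. Because array medians differed 2.23-fold, above a limit of 1.5, arrays were quantile-normalized. Log2(signal + 16) was then taken, so fold changes of low genes are understated. Probe sets above their own array's median on at least 3 arrays were kept (26256), and for each of 11908 genes the probe set with the highest mean was tested. Limma 3.58.1 in R 4.3.3 was fitted to 5 group means (10 residual degrees of freedom, trended prior), with 7 comparisons and Benjamini-Hochberg adjustment over all genes; tests are two-sided, at 0.05, and errors are SE unless named SD. The number of arrays limits the precision.

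Replicates are labelled biological, and p-values measure the spread between these samples. Equal replicate numbers of neurosphere SP and non-SP arrays deviated together (r = 0.577, 0.522 and 0.621), so a fit with that number as a block is given where it changed a call. The members, lists and tests were chosen with earlier results of these data known. Values by array are given for members that passed in some comparison with a group mean of at least 200, and for Col1a2, Col4a1 and Col18a1; from other lists, up to 4 genes with the smallest p per comparison were eligible. Alternatives were other scalings, added constants of 1 and 64, no filter, the mean of probe sets, other variance settings, a replicate block and leaving out arrays. Promoter letters are from RefSeq (GRCm38.p6); protein sequences were not used here.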

Additional observations from a re-analysis of the deposited data

How the results depend on the processing

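Of 39 results in which a collagen passed the test, 28 also passed under each of the 27 alternatives and 0 reversed direction. Leaving out 1 array at a time, the number of collagens past the threshold ran from 9 to 13 in 3447 SP against neurosphere SP, from 14 to 17 in 4346 SP against neurosphere SP and from 7 to 12 in 3447 non-SP against neurosphere non-SP cells. It ran from 0 to 2 in 3447 SP against 4346 SP cells and stayed at 0 in both SP against non-SP comparisons and in their difference. For 3447 SP against 4346 SP cells, where 0 passed in the reported fit, 3 passed with arrays centred on their medians, 3 with an added constant of 64, 3 with the replicate block among neurospheres, 1 with the mean of a gene's probe sets and 1 with only the groups compared. Col18a1 in 3447 SP against neurosphere SP cells, at -0.07, was 0.05 without quantile normalization, 0.09 without 3447 SP replicate 1 and 0.56 without neurosphere SP replicate 2, the highest value with 1 array left out, the lowest being -0.67; the cause was not tested. Centring arrays on their medians moved the median of all genes to -0.38 in 3447 SP against 4346 SP cells, where collagens were at -1.08, and to -0.30 in 3447 SP against 3447 non-SP cells, where collagens were at 0.20 with 14 of 27 above 0. The difference of SP effects, with a collagen median of 0.17, was at -0.05 under that scaling.

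Equal replicate numbers of 3447 SP and 3447 non-SP arrays did not deviate together (r = -0.225, -0.249 and -0.12). Some unequal numbers did: SP 1 with non-SP 2 (0.366), SP 2 with non-SP 3 (0.296) and SP 3 with non-SP 1 (0.217). The remaining pairs were at -0.034 or below. The labels do not say which of these arrays belong together, so pairing within line 3447 is not settled. With the replicate block in both origins, 12, 16 and 10 collagens passed in the 3 comparisons with neurospheres, and 0 in the other 4; Col6a3 in 4346 SP (0.0585) and Col19a1 in 3447 non-SP cells (0.0556) no longer passed, and Col4a1 in 4346 SP cells did (0.0183). With the replicate block among neurospheres, the pairing changed the calls of Col1a1, Col5a3, Col9a2, Col12a1 and Col4a1, as given above, and no other collagen call. Without the third arrays of 3447 SP and 4346 SP together, an alternative chosen after seeing the data, as was the block among neurospheres, 13, 14 and 12 passed. Signals near background limit the 13 collagens that were not tested, and the fold change of Col11a2 in 3447 SP cells ran from 2.40 to 5.86 on the log2 scale with the added constant.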
